A study of Mus musculus with 4 samples.

Results

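C1q-positive macrophages of the mouse spleen are described here in 4 single-cell RNA libraries. They were chosen by UMIs (unique molecular identifiers, each standing for 1 captured RNA molecule). A cell was a member with at least 3 UMIs over the complement genes C1qa, C1qb and C1qc, under 20 over the neutrophil genes S100a8 and S100a9, and at most 1 each over the B-cell genes Cd79a and Ms4a1 and over the T-cell genes Cd3d, Cd3e and Cd3g. The rule found 585 members, 2.86% of the 20476 barcodes kept for analysis, which had 200 or more genes and no more than 10% of their UMIs from mitochondrial genes.

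The spleens came from mice aged 10 weeks that received 100 µl by intravenous injection 4 h before. Wild-type C57BL/6 mice received PBS (56 members) or 9 µg recombinant mouse TNF (119 members), and TRIF-KO mice on the C57BL/6 background received PBS (148 members) or the same dose of TNF (262 members). This order of libraries is kept for every set of 4 values. Each group is 1 library, and the labels name neither the TRIF allele nor the number of mice behind a library, so every comparison is between libraries and no spread between mice can be given. All intervals are 95% intervals and cover counting error only.

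Macrophages of the splenic red pulp engulf aged red blood cells, split haem with haem oxygenase 1 (Hmox1) and return the iron to plasma through ferroportin (Slc40a1) or store it in ferritin (Fth1, Ftl1). Their development depends on the transcription factor Spi-C (Spic), and they also make C1q, the starting component of the classical complement pathway. TNF acts through TNF receptor 1 on NF-kB. TRIF, the product of Ticam1, links Toll-like receptors 3 and 4 to their kinases. TRAM (Ticam2) bridges it to TLR4, and CD14 serves as a TLR4 co-receptor. The series asked what loss of TRIF does to the reaction of the spleen to TNF.

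The label was checked with marker genes that the rule did not use. All 12 red pulp markers were read in each library, and 50 of 56, 104 of 119, 138 of 148 and 240 of 262 members held at least 2 of them. Vcam1, an adhesion molecule of red pulp macrophages, was read in 82.1%, 82.4%, 86.5% and 84.4% of members, against at most 0.619% of B-gated cells, which should lack it and show the level of free RNA. Hmox1 was read in 91.1%, 90.8%, 87.8% and 96.2% of members. Of the defining markers of the macrophages around the white pulp, Cd209b had 0, 1, 0 and 0 UMIs and Siglec1 3, 0, 6 and 2 UMIs. The marginal zone and metallophilic list of 4 genes also holds Marco and Nr1h3, which are given below. At least 2 of its genes were read in 12.5%, 41.2%, 4.05% and 57.3% of members, more with TNF than with PBS. The erythroid list went the other way, at 133712, 297675, 437225 and 284157 per 1000000 UMIs of the members. Over all kept barcodes it stood at 136312, 148536, 121941 and 210443. By number the members were thus mainly cells with red pulp markers. The name describes these cells and not all of the RNA summed over the members. The C1q genes chose the cells and are given as a description only, with C1qa at 1870, 1373, 1154 and 1488 CPM (UMI counts scaled to a sum of 1000000 over the members).

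The members were shallow cells. Their median depth was 1353, 1243, 1313.5 and 1459 UMIs, below the 6978, 4768, 4499 and 7351 UMIs of all kept barcodes, while the B-gated cells had medians of 5989, 4126, 3877 and 5594.5. The libraries held 23614028 to 67276803 UMIs in all. Members above 5000 UMIs numbered 11, 27, 48 and 58 and held 71.0%, 73.0%, 82.8% and 74.7% of the members' UMIs, so that sums over members rest largely on these cells. Haemoglobin made up 13.0%, 29.4%, 43.3% and 28.0% of the members' UMIs, and the 105 members above 5% haemoglobin carried 33.6%, 45.8%, 68.8% and 48.1% of them. Their part in the results was not tested. Since haemoglobin takes a different share of each library's total, the main results are also given for a restricted set of 406 members (45, 77, 96 and 188) with at most 5% haemoglobin and at least 3 UMIs over 8 red pulp genes (Vcam1, Spic, Slc40a1, Cd163, Cd5l, Treml4, Itgad, Adgre1). That set was chosen after the values were seen, and because it is defined with those 8 genes their values in it are a description.

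**Figure D1:**
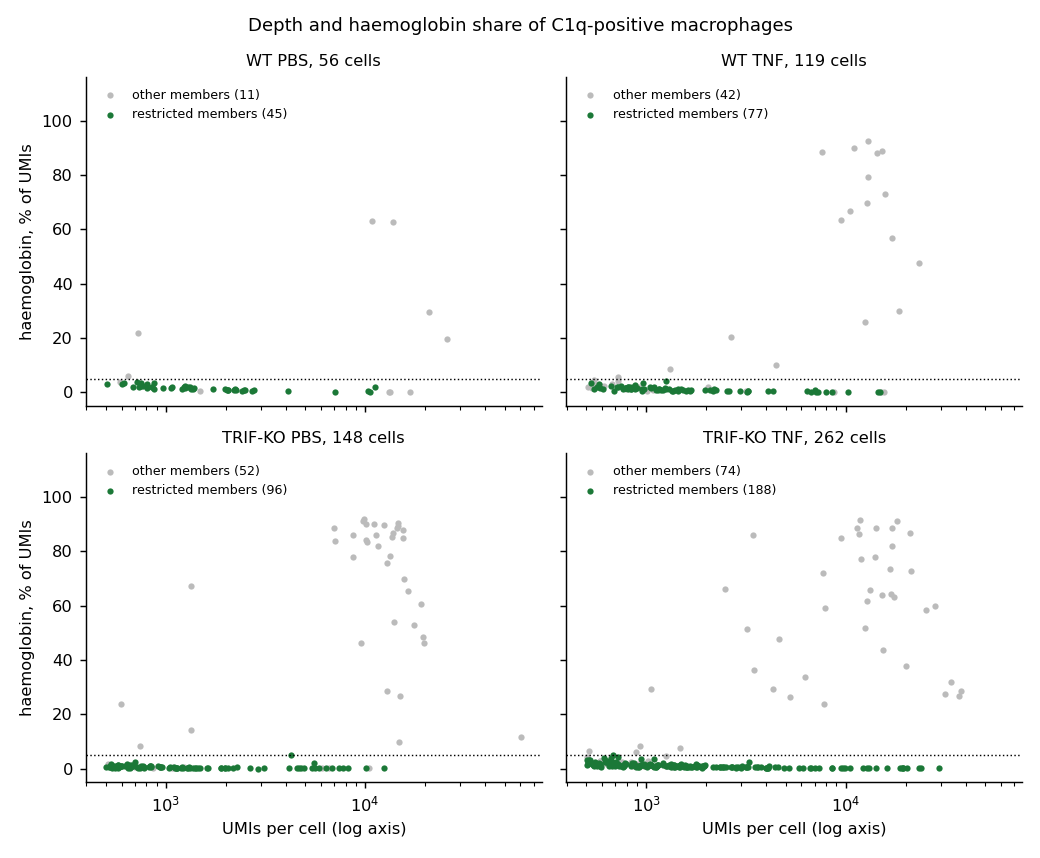
Share of haemoglobin in the UMIs of each member (vertical axis, percent) against its UMIs (horizontal log axis), 1 panel per library and 1 point per cell. Green points are restricted members, grey points the others, and the dotted line marks 5%. Most members lie at low depth under the line, and the cells above it, 105 in all, mostly hold many UMIs.

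RNA of other cells was low in most lists but not even between libraries. The neutrophil list summed to 69.2, 176, 54.2 and 305 CPM in members, against 7644, 4167, 2315 and 17677 CPM over all kept barcodes. The monocyte list was read at 2138, 1202, 568 and 978 CPM, highest in wild-type with PBS. In that library, 51 UMIs of the plasmacytoid dendritic gene Siglech and 67 of the lymphocyte protease gene Gzma lay in 1 cell each, so that ratios of such genes rest on single cells. Their part in the results below was not tested. No member barcode was shared between libraries, and pairs of libraries shared 2 to 11 of all kept barcodes. The threshold cut through a continuum, with 54 members at exactly 3 C1q UMIs and 53 cells left out at 2. Vcam1 was read in 42.9%, 71.4%, 75% and 64.3% of the former and in 20%, 40%, 63.6% and 36.4% of the latter.

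The first question was how many of these macrophages each spleen yielded. They made up 2.24% (1.70 to 2.90) and 2.26% (1.88 to 2.70) of kept barcodes in wild-type with PBS and with TNF, and 2.62% (2.22 to 3.07) and 3.71% (3.28 to 4.18) in the libraries labelled TRIF-KO. The ratio of TNF to PBS was 1.01 (0.739 to 1.39) in wild-type and 1.42 (1.16 to 1.73) in TRIF-KO. After TNF the TRIF-KO share was 1.64 times (1.32 to 2.03) that of wild-type, while with PBS the ratio was 1.17 (0.862 to 1.58). Restricted members gave 0.815 (0.566 to 1.17) in wild-type and 1.57 (1.23 to 2.0) in TRIF-KO. Shares depend on what the other cells did and on the depth at which C1q was read, and fewer cells of a type cannot be told apart from poorer recovery of them.

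Ferroportin gave the clearest difference between PBS and TNF among the genes of red pulp function. Slc40a1 (ENSMUSG00000025993, chromosome 1, 45908068 to 45926523, minus strand, mouse build GRCm38) stood at 1579 (1416 to 1755), 142 (109 to 181), 1609 (1518 to 1705) and 245 (217 to 274) CPM. Both PBS libraries were high and both TNF libraries low, with intervals that did not overlap. The log2 ratio of TNF to PBS was -3.48 (-3.89 to -3.09) in wild-type and -2.72 (-2.91 to -2.53) in TRIF-KO, and -3.37 and -3.38 in restricted members. The cells themselves showed it, since Slc40a1 was read in 80.4%, 25.2%, 79.1% and 34.0% of members. Thinned to 2000 UMIs per cell, which left 23, 43, 60 and 98 members, the shares were 78.3%, 25.6%, 58.3% and 31.6%. Thinning keeps deep cells, and the 6, 18, 38 and 43 members above 5% haemoglobin had medians of 12322, 12670, 12923 and 12491 UMIs. Haemoglobin thus takes an uneven part of the 2000 UMIs, and thinned shares here and below are not matched for other RNA. B-gated cells had a Slc40a1 UMI in at most 0.321% of cells.

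The storage side of iron handling differed in the opposite direction. Fth1, the ferritin heavy chain, stood at 7890, 16550, 4787 and 16026 CPM, with log2 ratios of 1.07 (0.99 to 1.15) and 1.74 (1.69 to 1.80), or 1.32 and 1.59 in restricted members. Both TNF libraries were above both PBS libraries. Ftl1, the ferritin light chain, moved little, at 7668, 6422, 5801 and 6712 CPM and log2 -0.26 and 0.21. Trf, which encodes the iron carrier transferrin, was lower in wild-type with TNF (1048 and 266 CPM, log2 -1.98, -2.31 to -1.65), with 516 and 384 CPM in TRIF-KO (log2 -0.42, and -1.18 in restricted members). Hmox1, which opens the haem ring, had 2908, 2840, 1874 and 3403 CPM. Its ratio was near 1 in wild-type (log2 -0.03, -0.17 to 0.11) and 0.86 (0.77 to 0.95) on the log2 scale in TRIF-KO, but 0.13 and 0.14 in restricted members, so the genotypes differed over all members and hardly in the restricted set.

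Over the list of haem and iron genes, 17 were measured, meaning at least 50 UMIs over all members and 50 CPM in 1 library. A gene can pass this filter through the library where it is high, so counts over a list describe its measured genes only. In wild-type 1 was at least 2-fold higher after TNF and 5 lower, where 6.30% and 28.2% of all 3621 measured genes were, and the median log2 ratio was -0.43 against -0.52 for all genes. In TRIF-KO 2 were higher and 1 lower, where 14.9% and 3.15% of all genes were. The medians there were 0.22 and 0.30. In restricted members 2 of 19 were higher and 4 lower in wild-type, where 15.0% and 17.9% of all 3331 measured genes were, and 2 and 6 in TRIF-KO, where 11.7% and 10.1% were. The medians of the list were -0.24 and -0.26, against -0.08 and 0.01 for all genes. Over all members Fth1 was the gene higher in wild-type, and the 5 lower ones were Slc40a1, Trf, the transferrin receptor gene Tfrc, the haemoglobin receptor gene Cd163 and Ncoa4, whose product delivers ferritin for breakdown. In TRIF-KO Fth1 and the metal transporter gene Slc11a1 were higher and Slc40a1 lower.

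**Figure D2:**
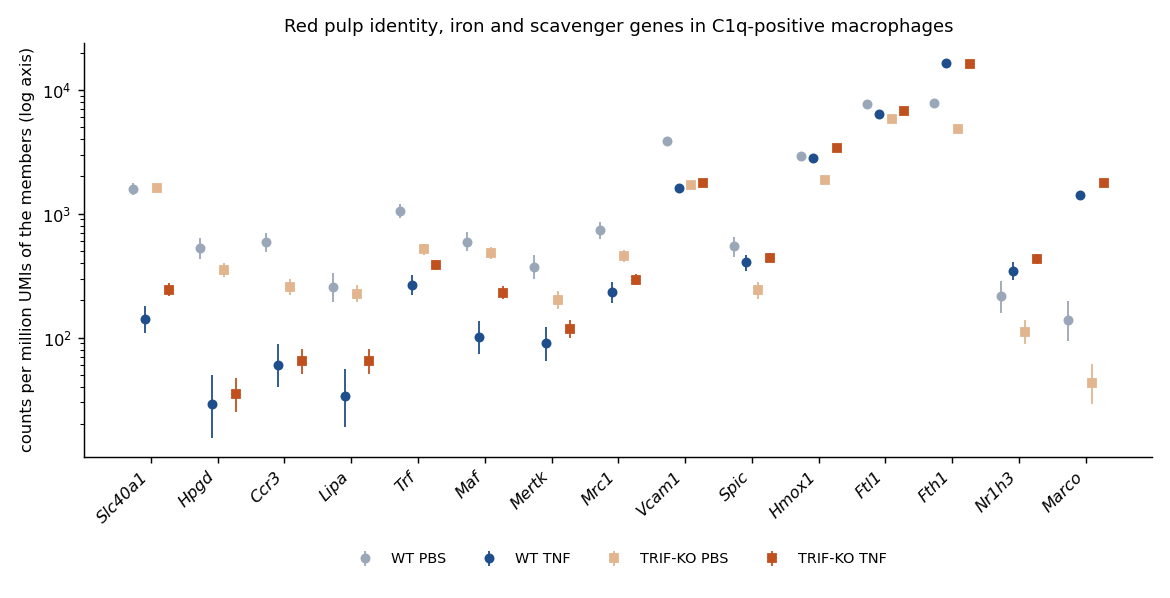
Level of 15 genes summed over the members of each library (log axis, CPM), with bars for exact Poisson intervals that cover counting error only. Slc40a1, Hpgd, Ccr3 and Lipa lie low in both TNF libraries, Fth1 and Marco high.

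Of the genes that mark red pulp macrophages, Hpgd was lowest against PBS. Hpgd, which encodes the enzyme that inactivates prostaglandins, stood at 526 (434 to 632), 29.3 (15.6 to 50), 352 (310 to 398) and 35.2 (25.4 to 47.6) CPM. Its log2 ratios were -4.17 (-5.12 to -3.34) and -3.32 (-3.83 to -2.85), with -4.21 in restricted members of either genotype. It was read in 58.9%, 8.40%, 63.5% and 11.1% of members, low in both TNF libraries. Ccr3, a chemokine receptor, was at 591, 60.8, 256 and 64.5 CPM (log2 -3.28 and -1.99). Slco2b1, an organic anion transporter, had 17, 0, 33 and 1 UMIs, so its ratio in wild-type is at most log2 -3.54 against a floor of 3 counts per library. Its ratio in TRIF-KO was -5.78 (-11.12 to -3.20) from that single UMI.

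Some receptors for dying cells and for sugars were lower as well, more so in wild-type sums. The list of apoptotic cell uptake did not stand out in wild-type. There 4 of 14 genes were lower and 1 higher, where 28.2% of all genes were lower. Its median was log2 -0.64 against -0.52 for all genes. Msr1, on the same list, was higher with TNF in both genotypes, as given below. Mertk, which recognises apoptotic cells, stood at 374, 90.0, 203 and 118 CPM (log2 -2.05, -2.64 to -1.49, and -0.78, -1.13 to -0.44). Mrc1, the mannose receptor, stood at 739, 232, 459 and 295 CPM (log2 -1.67 and -0.64). Cd163 had 45, 10, 61 and 67 UMIs and log2 ratios of -3.21 (-4.36 to -2.20) and -0.60 (-1.12 to -0.07). In wild-type with PBS 42.2% of the Cd163 UMIs lay in 1 cell. Axl, a relative of Mertk, stood at 531, 254, 372 and 281 CPM (log2 -1.06 and -0.41). Itgb5, an integrin chain, had 29, 4, 45 and 22 UMIs (log2 -3.89 and -1.76). In restricted members the TRIF-KO ratios were lower than over all members, at -1.27 for Mertk, -1.19 for Mrc1, -1.42 for Cd163, -1.17 for Axl and -2.63 for Itgb5.

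Other identity genes differed less. Adgre1, which encodes F4/80, stood at 263, 225, 238 and 257 CPM (log2 -0.23 and 0.11), and Treml4 at 245, 266, 157 and 311 CPM (log2 0.12 and 0.98). Spic stood at 545, 405, 240 and 443 CPM, with log2 ratios of -0.43 (-0.77 to -0.08) and 0.88 (0.63 to 1.14), or -0.29 and 0.35 in restricted members. Over all members Vcam1 was lower in wild-type with TNF (3892 and 1607 CPM, log2 -1.28, -1.42 to -1.13) and level in TRIF-KO (1711 and 1787 CPM, log2 0.06). Haemoglobin took 13.0% of the members' UMIs in wild-type with PBS and 43.3% in TRIF-KO with PBS. Its part in this contrast was not tested. In restricted members the summed red pulp marker list stood at 18792, 7876, 16310 and 7394 CPM, lower with TNF in both genotypes. The restricted set is itself defined with red pulp genes, so these sums are a description and do not give Vcam1 alone. Thinned to 2000 UMIs per cell, the shares of members with Vcam1 were 82.6%, 58.1%, 58.3% and 63.3%, highest in wild-type with PBS. The limit given for the thinned shares of Slc40a1 holds here too. Cd5l, a scavenger receptor-like secreted protein, had log2 ratios of -1.20 and -0.18, Itgad, an integrin chain, -1.50 and -0.26, and Fcna, a soluble lectin, -0.97 and -0.16. For these 3 genes the restricted values in TRIF-KO were -0.99, -0.93 and -1.05.

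The transcription factor genes Maf and Irf8 were at least 2-fold lower after TNF in both genotypes. Maf stood at 596, 101, 484 and 230 CPM, with log2 ratios of -2.56 (-3.08 to -2.06) and -1.07 (-1.30 to -0.84). Irf8 was at 365, 45, 172 and 82.1 CPM (log2 -3.02 and -1.07), in a background where 66.1% to 78.4% of B-gated cells held an Irf8 UMI. In wild-type with PBS 31.6% of the Irf8 UMIs of the members lay in 1 cell. The receptor of the macrophage growth factor, Csf1r, differed less (826, 567, 568 and 565 CPM, log2 -0.54 and -0.01).

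Of 19 measured identity genes, 12 were at least 2-fold lower (28.2% of all genes were) and 0 higher after TNF in wild-type, with a median log2 ratio of -1.28 against -0.52 for all genes. In TRIF-KO 5 were lower (3.15% of all genes) and 2 higher, and the median was -0.18 against 0.30. Among restricted members 11 and 9 of 20 were lower (17.9% and 10.1% of all genes), with medians of -1.20 and -0.96, where those of all genes were -0.08 and 0.01, though the list includes the 8 genes that define the restricted set. The gap between the genotypes was thus smaller in the restricted set. Of 28 lysosomal genes, 14 were lower and 0 higher in wild-type and 1 lower and 2 higher in TRIF-KO, and the shares of all genes that were lower differed in the same way (28.2% and 3.15%). The list's medians were log2 -0.99 and 0.22, against -0.52 and 0.30. In restricted members 5 and 4 of 30 were lower, near the 17.9% and 10.1% of all genes. Lipa, the lysosomal acid lipase, was lower in both genotypes (259, 33.8, 227 and 64.5 CPM, log2 -2.94 and -1.81, restricted -2.51 and -2.59). The proteases Ctsb and Ctsd stood at log2 -0.61 and -0.68 in wild-type and 0.20 and 0.39 in TRIF-KO, and the saposin precursor Psap at -1.10 and -0.08. In restricted members all 3 were between -0.33 and -0.72 in both genotypes.

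The scavenger receptor Marco stood out among the genes that were high with TNF. Marco (chromosome 1, 120474538 to 120505024, minus strand), which binds bacteria and particles and is known from marginal zone macrophages, stood at 138 (93.4 to 198), 1406 (1298 to 1521), 43.1 (29.3 to 61.2) and 1787 (1712 to 1865) CPM. That is 10.1 times the PBS level in wild-type and 41.5 times in TRIF-KO (log2 3.34, 2.82 to 3.92, and 5.37, 4.86 to 5.94). It was read in 19.6%, 71.4%, 8.11% and 81.3% of members, against at most 0.838% of B-gated cells, so most cells of both TNF libraries held it. After thinning the shares were 17.4%, 55.8%, 5.0% and 60.2%. After TNF, 77 of 119 and 188 of 262 members were in the restricted set and Marco was read in 76.6% and 86.2% of these, so cells with red pulp markers held Marco RNA. With Cd209b and Siglec1 nearly absent, the marginal zone list rested on Marco and on Nr1h3, the liver X receptor alpha gene (217, 347, 111 and 431 CPM, log2 0.68 and 1.96). Another scavenger receptor gene, Msr1, was at 60, 205, 12.5 and 120 CPM (log2 1.77 and 3.26) but was read in only 10, or 8.40%, of the members of wild-type with TNF.

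**Figure D3:**
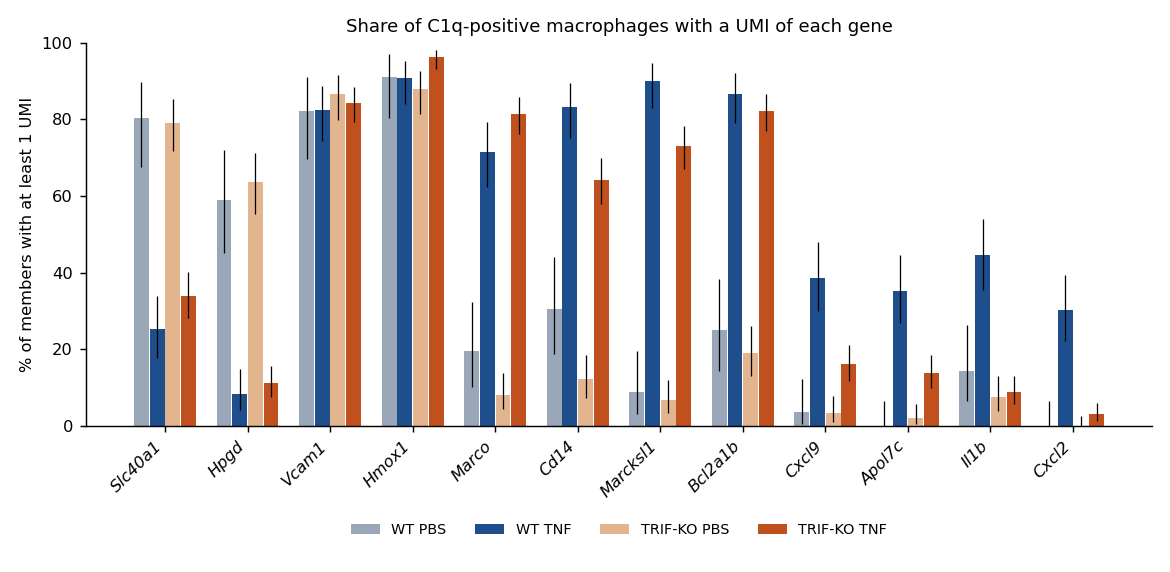
Percent of members with at least 1 UMI of 12 genes in the 4 libraries, with exact Clopper-Pearson intervals. Slc40a1 and Hpgd are in most members with PBS and in a minority with TNF, Marco, Cd14, Marcksl1 and Bcl2a1b show the opposite, and Il1b and Cxcl2 reach 44.5% and 30.3% in wild-type with TNF.

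Most measured genes of the NF-kB list stood higher with TNF in both genotypes. The list of NF-kB subunits, inhibitors and survival genes held 25 measured genes, of which 17 were at least 2-fold higher in wild-type and 19 in TRIF-KO, where 6.30% and 14.9% of all genes were, and 0 lower in either. Its medians were log2 1.47 and 1.77, against -0.52 and 0.30 for all genes. Some of the 25, such as Tnfaip3, reached 50 CPM only in TNF libraries. Their place among the higher genes followed in part from the filter, so these counts and medians are a description. In restricted members 21 and 17 of 24 were higher, where 15.0% and 11.7% of all 3331 measured genes were, with medians of 2.43 and 1.40.

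Most cells took part for some of these genes. Marcksl1, an actin-binding signalling protein, stood at 46.2, 1215, 25 and 992 CPM (log2 4.72, 3.83 to 5.79, and 5.31, 4.64 to 6.07) and was read in 8.93%, 89.9%, 6.76% and 72.9% of members. The survival gene Bcl2a1b stood at 78.5, 1240, 70.9 and 1041 CPM (log2 3.98 and 3.88), in 25%, 86.6%, 18.9% and 82.1% of members. Sod2, the mitochondrial superoxide dismutase, stood at 60, 918, 55.6 and 729 CPM (log2 3.94 and 3.71). Sdc4, a cell-surface proteoglycan, was at 129, 1139, 45.9 and 1085 CPM (log2 3.14 and 4.56). For these 4 genes both TNF libraries were far above both PBS libraries. B-gated cells also hold these RNAs, with Sdc4 in up to 54.6% of them.

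Nfkbia, Tnfaip3 and Traf1 were higher with TNF in both genotypes, with lower ratios in TRIF-KO. The whole NF-kB list did not follow them over all members, where its median was 1.47 in wild-type and 1.77 in TRIF-KO. Nfkbia, which encodes the inhibitor that holds NF-kB in the cytoplasm, stood at 148 (101 to 209), 909 (823 to 1002), 108 (85.7 to 135) and 344 (312 to 379) CPM. The log2 ratios were 2.62 (2.10 to 3.19) and 1.67 (1.31 to 2.04). Tnfaip3, the ubiquitin-editing enzyme A20, had 2, 98, 10 and 98 UMIs, or 9.23, 221, 13.9 and 82.1 CPM (log2 4.58, 2.69 to 7.64, and 2.56, 1.62 to 3.67). Traf1, a receptor-associated signalling protein, had 1, 67, 10 and 70 UMIs (log2 5.03, 2.50 to 10.35, and 2.08, 1.11 to 3.20). For Tnfaip3 and Traf1 the intervals of the genotypes overlap, and the wild-type ratios rest on 2 and 1 UMIs with PBS.

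Promoter sequence of 5 such genes is shown because they carry the NF-kB consensus close to their start. The sequences come from RefSeq, build GRCm38.p6, and run 5′ to 3′ on the strand of the gene, with matches to the NF-kB consensus of 10 bases, searched on both strands, in capitals.
Cxcl2, chr5:90903762-90903861, plus strand: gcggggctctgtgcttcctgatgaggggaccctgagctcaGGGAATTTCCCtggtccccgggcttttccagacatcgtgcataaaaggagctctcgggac
Nfkbia, chr12:55492648-55492747, minus strand: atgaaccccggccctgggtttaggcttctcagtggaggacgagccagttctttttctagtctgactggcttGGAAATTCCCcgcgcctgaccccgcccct
Tnfaip3, chr10:19015411-19015575, minus strand: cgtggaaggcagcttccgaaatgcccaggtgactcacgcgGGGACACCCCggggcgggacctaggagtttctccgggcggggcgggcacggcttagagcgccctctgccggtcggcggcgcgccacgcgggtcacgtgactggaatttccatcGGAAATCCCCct
Sod2, chr17:13007716-13007815, plus strand: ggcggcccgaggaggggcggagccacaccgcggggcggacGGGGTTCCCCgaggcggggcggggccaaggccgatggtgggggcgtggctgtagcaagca
Sdc4, chr2:164443211-164443310, minus strand: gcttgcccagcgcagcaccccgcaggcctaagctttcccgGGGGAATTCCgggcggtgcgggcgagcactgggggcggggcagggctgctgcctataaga
In Cxcl2 2 overlapping matches form the capitals, and Tnfaip3 has 2 separate ones. The 250 bases before the start held a match in 2225 of the 27025 genes of the promoter table (8.23%), in 321 of the 2899 measured genes found there (11.1%) and in 8 of 19 genes of the NF-kB list (42.1%). It was in 20 of 135 genes higher after TNF in both genotypes (14.8%) and in 11 of 78 genes lower in both (14.1%), close to each other. Marco, Marcksl1, Bcl2a1b, Il1b and Hpgd had no match in this window. A match is a string of letters and not evidence of binding.

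Of the 22 chemokine genes of the list found in the files only 7 were measured, and some of these passed the filter through the TNF libraries alone, so they are given gene by gene with no count. Cxcl2, a neutrophil attractant (chromosome 5, 90903871 to 90905938, plus strand), had 0, 133, 0 and 34 UMIs, or 0, 299 (251 to 355), 0 and 28.5 (19.7 to 39.8) CPM. The 2 PBS values of 0 allow up to 3 counts, so Cxcl2 was at least 21.6-fold higher with TNF in wild-type and at least 6.83-fold higher in TRIF-KO. It was read in 36 of 119 and 8 of 262 TNF members, and 64.7% of the TRIF-KO UMIs lay in 1 cell. Cxcl9, a T-cell attractant, stood at 9.23, 439, 19.5 and 322 CPM (log2 5.57, 3.70 to 8.63, and 4.05, 3.29 to 4.94), in 38.7% and 16.0% of TNF members. Ccl9 stood at 73.9, 358, 26.4 and 238 CPM (log2 2.28 and 3.17) and Cxcl16, a membrane-bound chemokine, at 9.23, 110, 6.95 and 142 CPM (log2 3.58 and 4.36). Cxcl10 is given as counts only, 1, 169, 8 and 37 UMIs, because 87.0% of those in wild-type with TNF lay in 1 cell.

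Cytokines and inflammatory effectors were sparse too, with 13 of 40 genes measured. Il1b, which encodes interleukin 1 beta (chromosome 2, 129364570 to 129371139, minus strand), stood at 87.7 (52.8 to 137), 414 (356 to 478), 47.3 (32.7 to 66.0) and 77.9 (62.9 to 95.4) CPM. The wild-type TNF library was high and the other 3 low. The log2 ratio of TNF to PBS was 2.24 (1.55 to 3.0) in wild-type and 0.72 (0.14 to 1.33) in TRIF-KO, or 2.02 and 0.03 in restricted members, and Il1b was read in 14.3%, 44.5%, 7.43% and 8.78% of members. Its antagonist Il1rn had 1, 97, 1 and 156 UMIs in 1, 14, 1 and 26 cells (log2 5.56, 3.05 to 10.88, and 6.55, 4.06 to 11.87). The acute-phase gene Saa3 had 1, 198, 0 and 2266 UMIs, but in only 1, 7, 0 and 17 cells, and 46.5% and 63.1% of the TNF UMIs lay in 1 cell each, so its CPM says nothing of the typical member. Plaur, the urokinase receptor, had 5, 34, 4 and 8 UMIs.

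Other genes of defence were high with TNF in a minority of cells. Apol7c, an apolipoprotein L family member, had 0, 176, 5 and 243 UMIs, at least 28.6-fold higher in wild-type, with log2 4.87 (3.63 to 6.51) in TRIF-KO. It was read in 35.3% and 13.7% of TNF members. Clec4e, the receptor Mincle, had 1, 172, 5 and 191 UMIs in 1, 12, 4 and 23 cells (log2 6.39, 3.89 to 11.70, and 4.52, 3.28 to 6.16). Cfb, factor B of the alternative complement pathway, had 0, 80, 17 and 241 UMIs, at least 13.0-fold higher in wild-type and log2 3.09 (2.39 to 3.90) in TRIF-KO. C5ar1, the receptor for the anaphylatoxin C5a, had 1, 50, 1 and 45 UMIs, while the terminal complement gene C6 was lower (180, 67.5, 108 and 63.7 CPM, log2 -1.42 and -0.77).

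Of 19 antioxidant genes, 7 were higher in wild-type (6.30% of all genes) and 6 in TRIF-KO (14.9%). In either genotype 0 were lower, where 28.2% and 3.15% of all genes were. In restricted members 6 of 18 were higher and 1 lower in wild-type, where 15.0% and 17.9% of all genes were. In TRIF-KO 5 were higher and 3 lower there, where 11.7% and 10.1% of all genes were, and the list's median was 0.02. Prdx5, a peroxiredoxin, stood at 157, 774, 86.2 and 566 CPM (log2 2.30 and 2.72), and Txnrd1, a thioredoxin reductase, at 125, 360, 54.2 and 219 CPM (log2 1.53 and 2.02). The cystine transporter gene Slc7a11 had 0, 86, 2 and 69 UMIs, at least 14-fold higher in wild-type and log2 4.38 (2.47 to 7.45) in TRIF-KO, in 11 and 13 TNF members. Hif1a, which encodes the oxygen-regulated factor, stood at 102, 284, 38.9 and 177 CPM (log2 1.48 and 2.18). Mmp14, a membrane-bound metalloproteinase, had 0, 82, 1 and 192 UMIs in 0, 14, 1 and 45 cells. In lipid handling 3 of 16 genes were higher and 4 lower in wild-type (6.30% and 28.2% of all genes). In TRIF-KO 4 were higher and 0 lower (14.9% and 3.15% of all genes). The list's medians were -0.45 and -0.02, against -0.52 and 0.30 for all genes. Restricted members gave 2 and 3 of 12 (15.0% and 17.9% of all genes), then 2 and 2 (11.7% and 10.1%). With so few genes these counts are a description. The fatty acid carrier Fabp5 stood at 134, 446, 73.7 and 540 CPM (log2 1.73 and 2.87). Abcg1, a cholesterol exporter, stood at 175, 49.5, 108 and 62.0 CPM (log2 -1.83 and -0.81), and Apoe at log2 -0.76 and -0.11.

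Interferon-stimulated genes depended on which members were counted. Of 23 type I genes 4 were higher and 2 lower in wild-type, where 6.30% and 28.2% of all genes were. In TRIF-KO 7 were higher and 0 lower, where 14.9% and 3.15% of all genes were. In restricted members 3 of 21 were higher and 2 lower, then 1 and 1. The shares of all genes there were 15.0% and 17.9%, then 11.7% and 10.1%. The list's medians, log2 -0.30 and 0.76, or -0.12 and -0.19 in restricted members, compare with -0.52, 0.30, -0.08 and 0.01 for all genes. The antiviral gene Rsad2 had 36, 213, 246 and 1082 UMIs in all members and 2, 1, 26 and 30 in restricted ones, so nearly all of its RNA lay outside the restricted set. Its TRIF-KO ratio was log2 1.41 (1.21 to 1.61) over all members and -1.42 (-2.23 to -0.61) in restricted members. Isg15, a ubiquitin-like protein, had ratios of 2.80 and 2.16, and of 2.43 and 0.98 in restricted members. The guanylate-binding proteins Gbp2 (18.5, 149, 26.4 and 94.6 CPM) and Gbp5 (9.23, 182, 12.5 and 87.1 CPM) were higher in both genotypes, at log2 3.01 and 1.84 for Gbp2 and 4.30 and 2.80 for Gbp5, with 3.11, 2.02, 4.92 and 3.90 in restricted members in the same order. The list of interferon-gamma GTPases and antigen presentation had 5 higher and 1 lower of 23 in either genotype, with medians of 0.08 and 0.75. In restricted members 6 of 24 were higher and 2 lower, then 2 and 3, with medians of 0.43 and 0.16. The shares and medians of all genes are those given above for the type I list.

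The remaining lists are given by their counts of genes at least 2-fold higher and lower with TNF. Of all genes 6.30% and 28.2% were higher and lower in wild-type and 14.9% and 3.15% in TRIF-KO, and 15.0% and 17.9%, then 11.7% and 10.1%, in restricted members. With so few genes in each list the counts are a description. Metalloproteinase and matrix genes had 2 higher and 0 lower of 8 in wild-type and 5 and 0 in TRIF-KO, and 3 and 0 of 5 in restricted members of either genotype. Glycolysis and hypoxia genes had 2 and 1 of 12, then 6 and 0, and in restricted members 2 and 0, then 4 and 0. Immediate-early and heat-shock genes had 1 and 1 of 14, then 3 and 0 (restricted 2 and 0, then 1 and 2). Glucocorticoid-responsive genes had 4 and 4 of 11, then 5 and 0 (restricted 3 and 4, then 4 and 2). Genes of apoptotic cell uptake had 1 and 4 of 14, then 1 and 2 (restricted 2 and 3, then 1 and 4), and the share lower in wild-type was close to that of all genes.

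**Figure D4:**
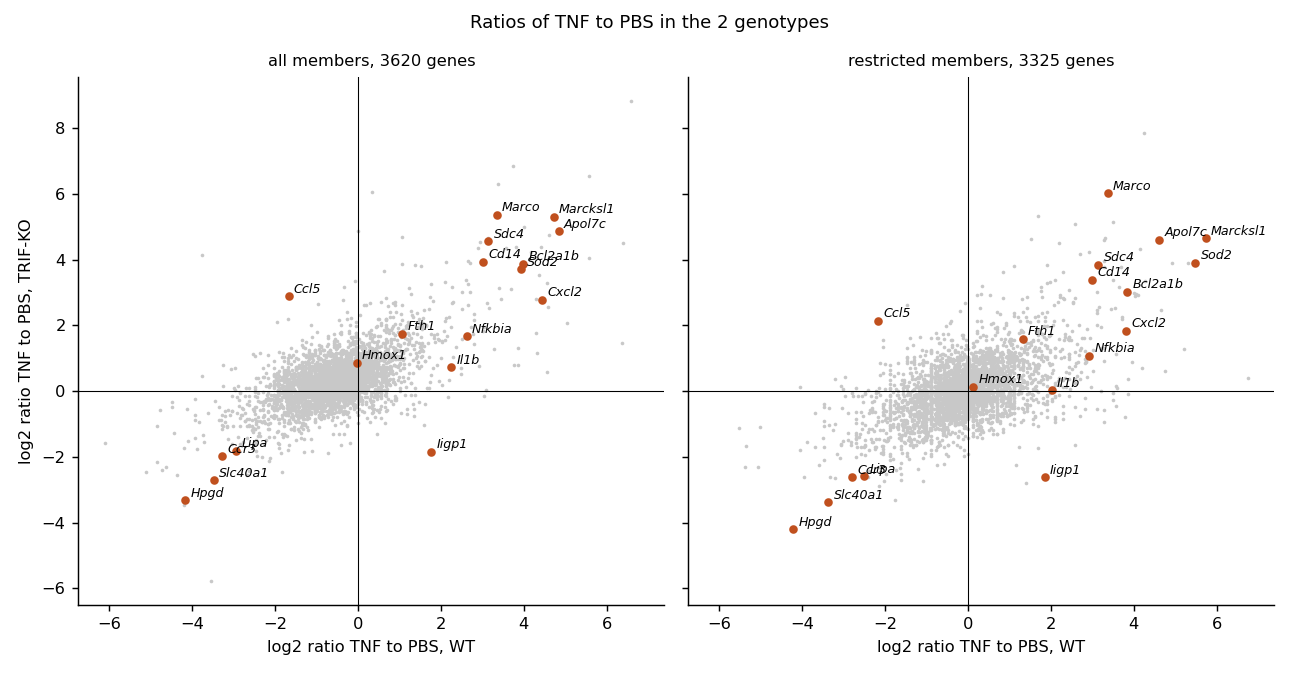
Log2 ratio of TNF to PBS in TRIF-KO (vertical) against wild-type (horizontal) for each measured gene, over all members (left, 3620 genes) and restricted members (right, 3325 genes). The cloud on the left is shifted to the upper left of the origin, with medians of -0.52 in wild-type and 0.30 in TRIF-KO, and Il1b, Cxcl2 and Nfkbia lie toward the wild-type side of the induced genes in both panels.

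Counts over all genes show how far the totals moved. In wild-type 228 of 3621 genes were at least 2-fold higher with TNF and 1022 lower, and in TRIF-KO 538 were higher and 114 lower. In restricted members the counts were 499 higher and 596 lower (15.0% and 17.9% of 3331) in wild-type and 391 and 338 (11.7% and 10.1%) in TRIF-KO. Of the genes higher in one genotype, 167 were higher in both, 73.2% of the wild-type and 31.0% of the TRIF-KO genes. For lower genes the overlap was 100, or 9.78% and 87.7%. In restricted members the overlaps were 205 (41.1% and 52.4%) and 212 (35.6% and 62.7%). The imbalance between genotypes over all members moved with the haemoglobin share, which was 13.0% in the wild-type PBS library and 43.3% in the TRIF-KO one, and its part was not tested.

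In the comparison of genotypes with PBS the median of all genes was itself shifted. Over all members 54 of 3621 genes (1.49%) were at least 2-fold higher and 1193 (32.9%) lower in TRIF-KO than in wild-type, with a median log2 ratio of -0.77. In restricted members 297 of 3331 (8.92%) were higher and 223 (6.69%) lower, and the median was -0.01. Of the 19 identity genes 0 were higher and 4 lower over all members, and 0 of 20 in either direction in restricted ones. Slc40a1 stood at 1579 and 1609 CPM in the 2 PBS libraries. Marco was lower in TRIF-KO with PBS, at 30 and 31 UMIs or 138 and 43.1 CPM, but 50% of the wild-type UMIs lay in 1 cell.

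After TNF the medians of all genes were close to 0 (log2 0.09, restricted 0.06), so ratios of the genotypes can be read more directly there. Over all members 175 genes (4.83%) were higher and 102 (2.82%) lower in TRIF-KO, and in restricted members 248 (7.45%) and 127 (3.81%). In the NF-kB list 0 of 25 were higher and 9 lower, with a median of -0.48, and in restricted members 0 of 24 and 8, with a median of -0.65. Cxcl2 was lower in TRIF-KO by log2 -3.39 (-3.98 to -2.84), restricted -2.94. Il1b was lower by log2 -2.41 (-2.79 to -2.04), restricted -2.42. Cd83, a surface activation marker, stood at log2 -2.01 (-2.55 to -1.49) and Dusp1, a phosphatase that limits MAP kinases, at -1.95 (-2.27 to -1.63). Dusp2, its relative, had 0, 144, 8 and 129 UMIs and log2 -1.58 (-1.94 to -1.23). Tnfaip3 was at -1.43 (-1.84 to -1.01), Nfkbia at -1.40 (-1.60 to -1.20), Traf1 at -1.36 (-1.87 to -0.86) and Plaur at -3.51 (-4.84 to -2.38).

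Other TNF-induced genes reached similar levels in both genotypes. The ratio of TRIF-KO to wild-type after TNF was log2 0.35 (0.22 to 0.48) for Marco, -0.29 (-0.44 to -0.14) for Marcksl1, -0.25 (-0.40 to -0.10) for Bcl2a1b, -0.33 (-0.50 to -0.16) for Sod2 and -0.07 (-0.22 to 0.08) for Sdc4. Among the genes lower with TNF, Hpgd was at 0.27 (-0.66 to 1.29), an interval that includes 0, and Slc40a1 was higher in TRIF-KO by 0.79 (0.39 to 1.20). The genes with lower levels in TRIF-KO were read in fewer cells, Il1b in 53 of 119 members of wild-type and 23 of 262 of TRIF-KO. Of the 38 genes in the promoter table that were at least 2-fold higher with TNF in wild-type and lower in TRIF-KO than in wild-type after TNF, 11 (28.9%) held the NF-kB consensus. The share was 11.1% of measured genes and 14.8% of genes higher with TNF in both genotypes. Both conditions of that set use the wild-type TNF library, and genes of the NF-kB list were not taken out. The share is thus a description and was not tested.

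**Figure D5:**
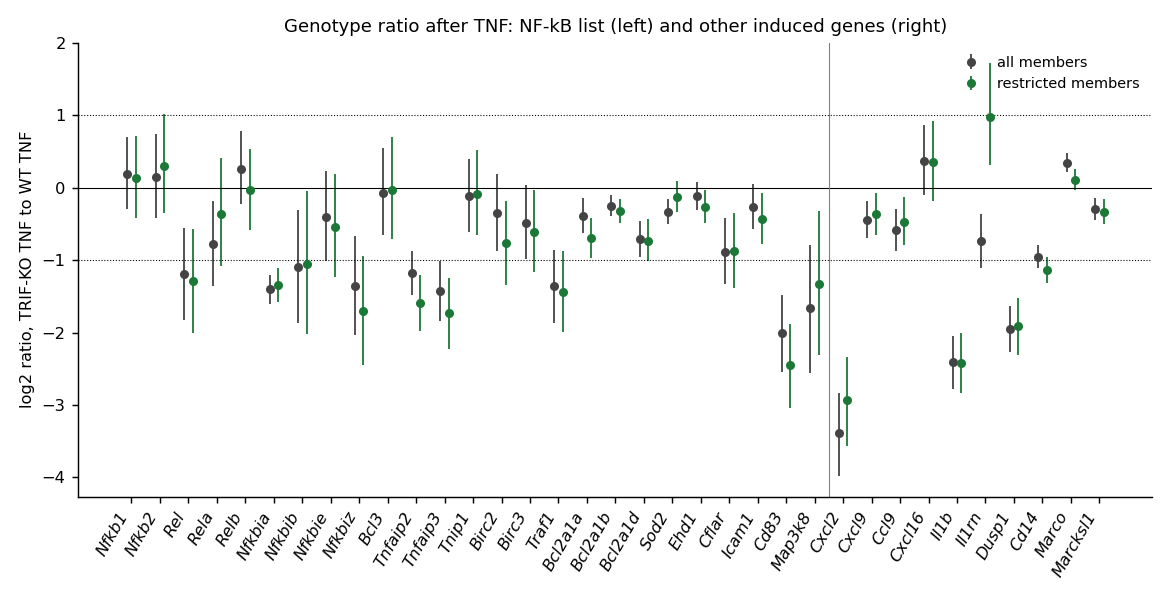
Log2 ratio of TRIF-KO to wild-type after TNF, with exact counting intervals, for the 25 measured genes of the NF-kB list (left of the grey line) and 10 other TNF-induced genes, over all members (black) and restricted members (green). Dotted lines mark 2-fold. Nfkbia, Tnfaip3, Traf1, Cd83, Cxcl2, Il1b and Dusp1 lie below the lower line in both sets, and Marco, Sod2 and Bcl2a1b lie near 0.

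The difference between the responses, TRIF-KO minus wild-type on the log2 scale, had a median of 0.84 over all members (1489 of 3597 genes, 41.4%, at least 2-fold higher and 66, 1.83%, lower) and 0.10 in restricted members (497 of 3265, 15.2%, and 329, 10.1%). It shares its libraries with every comparison above. For Il1b it was -1.50 (-2.38 to -0.62), restricted -1.97, and for Nfkbia -0.94 (-1.56 to -0.32), restricted -1.84. Marco went the other way, at 2.03 (1.30 to 2.76) and restricted 2.60, with PBS levels of 138 CPM in wild-type and 43.1 CPM in TRIF-KO. In the NF-kB list 4 genes were higher and 4 lower of 25 over all members. In restricted members 1 was higher and 11 lower of the 22 genes with a difference, out of 24 measured.

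The genes of the TLR4 and TNF receptor route were mostly sparse. Ticam1 had 1, 3, 7 and 7 UMIs in the members, which neither checks nor contradicts the genotype label, since a tag outside the deleted part would still be read. Cd14 was the exception in depth, at 148 (101 to 209), 1188 (1089 to 1294), 40.3 (27.0 to 57.9) and 614 (570 to 660) CPM. It was higher with TNF by log2 3.01 (2.49 to 3.57) and 3.93 (3.39 to 4.52), and was read in 30.4%, 83.2%, 12.2% and 64.1% of members. After TNF it was lower in TRIF-KO by log2 -0.95 (-1.12 to -0.79), restricted -1.13. Ticam2 had 3, 3, 7 and 19 UMIs, Tlr4 9, 4, 22 and 18, and Ly96, which encodes MD-2, 4, 9, 18 and 26. The receptor genes Tnfrsf1a (78.5, 72.0, 32.0 and 72.0 CPM) and Tnfrsf1b (106, 110, 57.0 and 80.4 CPM) differed little between the TNF libraries (log2 0.00, -0.60 to 0.63, and -0.46, -0.97 to 0.07). Tlr2 stood at 27.7, 74.3, 15.3 and 79.6 CPM, and Irak3, an inhibitor of Toll-like receptor signalling, had 1, 25, 2 and 56 UMIs. Over the list 4 of 15 were higher and 5 lower with TNF in wild-type, where 6.30% and 28.2% of all genes were, and 8 and 0 in TRIF-KO, where 14.9% and 3.15% were. In restricted members 4 of 18 were higher and 6 lower (15.0% and 17.9% of all genes), then 4 and 0 (11.7% and 10.1%). Between the genotypes after TNF 0 of 15 were at least 2-fold apart over all members. Of all genes 4.83% were higher and 2.82% lower in TRIF-KO there. In restricted members 3 of 18 were higher and 1 lower in TRIF-KO, where 7.45% and 3.81% of all genes were.

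Cells with at least 2 UMIs of Csf1r and no C1q UMI (76, 39, 97 and 73 cells) were read for comparison, without a test. They had 0, 9, 1 and 2 UMIs of Slc40a1 and 0, 2, 0 and 16 of Marco. Hmox1 stood at 77.9, 1858, 56.5 and 1547 CPM there, with log2 ratios of 4.58 (4.25 to 4.91) and 4.78 (4.37 to 5.21), whereas in the C1q-positive members it was high with PBS already. Spic had 16, 172, 19 and 233 UMIs in these cells (log2 4.97 and 3.11). Hpgd stood at 119, 18.1, 315 and 18.3 CPM (log2 -2.71 and -4.11), so its lower level with TNF was not particular to the members. Fth1 (log2 3.43 and 3.21) and Trf (-1.70 and -1.99) also moved as in the members. Maf (0.18 and 1.45) and Lipa (0.44 and -0.40) did not show the lower levels of the members. Cxcl2 had 1, 233, 2 and 89 UMIs, again fewer in TRIF-KO than in wild-type after TNF, and Marcksl1 was at 55.8, 2727, 44.1 and 1091 CPM. After TNF, Il1b (1199 and 157 CPM), Nfkbia (1843 and 966), Tnfaip3 (323 and 100) and Plaur (364 and 90.6) were also lower in TRIF-KO there. Cxcl10 was not (15.5 and 34.2 CPM). Clec4e, Il1rn, Slc7a11 and Mmp14 were high with TNF in both genotypes there too. These differences were thus not particular to the members.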

How the data were processed

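Single-cell RNA was read from 4 spleen libraries. The deposited values are unnormalized UMI counts for 32285 features. Build mm10, Seurat 4.1.1 and Cell Ranger 3.0 are named per the submitters' processing notes, and Cell Ranger 6.0.1 per the file headers. Per the labels' protocols, red cells were lysed and dead cells removed. The annotation release and the counting settings are not given in the sources used here, so reads of overlapping or near-identical genes cannot be told apart.

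UMIs were summed over the members of a library and scaled to CPM with an exact Poisson interval. Ratios have the exact conditional interval (SciPy 1.17.1, Python 3.11.15), and shares the Clopper-Pearson interval. The difference between responses has 0.5 added to each count. A gene was measured where the members held 50 or more UMIs of it in all and 50 CPM or more in 1 library, and left out where its CPM stayed under 5% of that in a gated neutrophil, B, T or erythroid class in every library where it was read. With 1 library per group there is no p-value, and at least 2-fold is a statement of size. Ratios against 0 UMIs are bounds against 3 counts per library. Doublets were left in the main set and removed by score as an alternative. The calculation was tested on simulated counts. Replicate error is not measured by these files.

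Genes were named by a rule: the extremes of each comparison ranked by the interval bound nearest to 1 (10 high, 8 low), excluding predicted, sex-linked, haemoglobin, antigen-receptor, ribosomal and mitochondrial genes, of which the text gives a part, up to 6 members of each list, the marker genes of red pulp and marginal zone macrophages and the TLR4 and TNF receptor genes. One of the genes is not reported here. The members and lists were chosen with earlier results of these data known. Positions are from GENCODE M21 (GRCm38), promoters from RefSeq.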

Additional observations from a re-analysis of the deposited data

Results flagged for a closer look

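2 genes moved in opposite directions in the genotypes over all members and restricted members, by at least 2-fold each, and the difference was not tested. Ccl5, a chemokine of lymphocytes and activated macrophages, had 95, 61, 29 and 357 UMIs in 3, 29, 9 and 21 cells. Its log2 ratio of TNF to PBS was -1.68 (-2.16 to -1.20) in wild-type and 2.89 (2.34 to 3.49) in TRIF-KO, and -2.18 and 2.14 in restricted members. In wild-type with PBS 97.9% of its UMIs lay in 1 cell, and in TRIF-KO with TNF 63.3% did. The share of members with a Ccl5 UMI was 5.36%, 24.4%, 6.08% and 8.02%, higher with TNF in wild-type, against the CPM.

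Iigp1, an interferon-inducible GTPase, had 0, 21, 37 and 17 UMIs in 0, 12, 15 and 10 cells. It was at least 3.41-fold higher with TNF in wild-type (log2 1.77 as a lower bound) and at log2 -1.85 (-2.77 to -0.99) in TRIF-KO, or 1.85 and -2.63 in restricted members.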

How the results depend on the processing

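No paired analysis was possible because each group is 1 library, and no replicate could be left out. The share ratio of TNF to PBS in wild-type was 0.714 with at least 10 C1q UMIs, and in TRIF-KO it was 0.463 with 0 UMIs of B- and T-cell genes and at most 10 of haemoglobin, a setting that leaves 1, 25, 90 and 52 members. The counts of genes at least 2-fold different, 1250 (TNF against PBS, wild-type), 652 (TRIF-KO), 1247 (genotypes with PBS), 277 (genotypes after TNF) and 1555 (difference between responses), followed the gene filter, at 320, 256, 354, 43 and 473 with at least 200 UMIs and 100 CPM and at 2925, 1739, 2628, 1275 and 3450 with at least 20 UMIs. Scaling changed the genotypes with PBS and the difference, to 366 and 654 with median-of-ratios factors and 390 and 684 without mitochondrial, ribosomal, haemoglobin and immunoglobulin genes. With median-of-ratios factors the higher and lower genes numbered 450 and 483 in wild-type, 314 and 228 in TRIF-KO, 181 and 185 with PBS, 139 and 126 after TNF and 377 and 277 for the difference. In the settings added after the data were seen, the genotypes with PBS gave 520 genes in restricted members and 524 with haemoglobin at most 5%, and the difference between responses gave 826 and 839. The genotypes after TNF gave 500 genes with at least 10 C1q UMIs, 604 with each cell weighted equally, 418 without the top cell of each gene, and 130 and 163 under the strict lineage setting and under 3 UMIs of red pulp genes. TNF against PBS in TRIF-KO gave 157 and 174 under these last 2. The strict setting with wild-type PBS (1 cell) and the one under 3 UMIs in wild-type PBS (7 cells) were not run.

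Among the ratios of at least 2-fold of genes the text names, these changed direction under an alternative and the others did not in any setting run. Under 3 UMIs of red pulp genes (20 and 40 TRIF-KO cells) the TRIF-KO ratio of TNF to PBS was reversed for Apol7c (-1.0), Ccl9 (-1.0), Cfb (-2.49), Cxcl9 (-2.85), Gbp2 (-0.92), Hif1a (-0.49), Nfkbia (-0.061) and Prdx5 (-0.98), and the ratio of genotypes after TNF for Maf (-1.01), Saa3 (-5.36) and Ccl5 (-3.65). The Ccl5 ratio of TNF to PBS was 4.89 with at least 10 C1q UMIs, 0.96 with equal weights and 3.66 without the top cell in wild-type, and -0.70 under the strict setting in TRIF-KO. Between genotypes Ccl5 stood at 0.69 and 1.27 with PBS, with at least 10 C1q UMIs and without the top cell, and after TNF at -2.12, -1.54 and -0.093 with at least 10 C1q UMIs, equal weights and no top cell. Rsad2 in TRIF-KO stood at -0.75 under the strict setting, -1.42 in restricted members and -1.12 with haemoglobin at most 5%, and in wild-type at -0.23 with at least 10 C1q UMIs. Ccl9 with PBS was 0.46 in restricted members, Cd163 and Cxcl9 0.017 and -0.068 with equal weights, and Gbp5 after TNF 0.25 under the strict setting. The cause was not tested. Ratios that rest on few UMIs, such as those of Traf1 and Irak3, have wide counting intervals, and depth limits them.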
